A study of Homo sapiens with 4 samples.

Results

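The regions described here are 1 Mb stretches of the human genome that hold the start of at least 1 annotated gene and carried no γH2AX peak in HepG2 cells after lipid overload or after mock treatment. They were chosen by the peak lists themselves: each chromosome from 1 to 22 and X was divided into windows starting at multiples of 1 Mb (hg38), windows with at least 1 RefSeq gene start were kept, and those that no peak of either list touched were taken. This left 368 of 2887 gene-holding windows, or 12.7%, and the other 2519 windows held at least 1 peak. The absence of peaks is therefore the rule of choice and not a result, and all shares and medians below describe a complete count of windows or genes, with no test.

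Phosphorylation of the histone variant H2AX at serine 139 gives γH2AX, a chromatin mark laid down around DNA double-strand breaks. In HepG2, an established human liver cancer cell line, it was mapped by CUT&Tag, in which an antibody guides a transposase that cuts and tags the DNA nearby. The series has 4 samples of 1 library each: lipid overload with the γH2AX antibody (titled HEPG2-PAOA), lipid overload with IgG, mock with the γH2AX antibody (titled HEPG2-DMSO) and mock with IgG. The labels give no dose or duration of the lipid load, and without the IgG libraries, not analysed here, the antibody background is unknown. Each condition rests on 1 library, so no difference between them has a replicate check.

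The lipid-overload list held 27296 peaks and the mock list 8542, with median widths of 196 and 180 bp. Each summit's number of DNA fragments, recovered from the deposited fold and p, was 4 or more in the lipid-overload list (median 9) and 3 or more in the mock list (median 5). A window without a peak can thus still hold γH2AX fragments: it only has no place where fragments piled up enough to be listed. The number of copies of each chromosome segment, which is uneven in HepG2, was not analysed here, and fewer copies and less γH2AX per copy cannot be told apart in these lists.

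Human genes are spread unevenly. Gene-dense segments hold many CpG-rich promoters, the start sites of broadly active genes, while gene-poor segments often hold long genes of the nervous system, tandem families of receptors, pseudogenes and long noncoding RNAs, many of them silent in liver cells. Promoters differ in how often C is followed by G, and they are shown first because this feature recurs below. The RefSeq promoters (GRCh38.p14, 250 bases before to 50 after the gene start) of 4 genes from windows without a peak, and of TOMM40 as a gene with a strong peak, read 5′ to 3′ on the strand of the gene, with each CG in capitals:
FGB: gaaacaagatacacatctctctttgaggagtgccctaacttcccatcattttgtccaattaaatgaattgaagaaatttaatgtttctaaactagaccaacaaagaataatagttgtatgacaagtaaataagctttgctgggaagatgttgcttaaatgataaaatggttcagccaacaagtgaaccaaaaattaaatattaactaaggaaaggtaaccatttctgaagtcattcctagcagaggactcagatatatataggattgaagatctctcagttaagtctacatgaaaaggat
OR4C11: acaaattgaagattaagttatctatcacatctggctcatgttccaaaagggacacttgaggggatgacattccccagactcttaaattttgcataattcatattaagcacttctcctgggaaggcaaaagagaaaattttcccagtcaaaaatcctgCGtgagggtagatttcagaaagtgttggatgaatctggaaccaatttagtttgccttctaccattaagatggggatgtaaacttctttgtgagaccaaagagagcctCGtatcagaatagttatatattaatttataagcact
PIK3C3: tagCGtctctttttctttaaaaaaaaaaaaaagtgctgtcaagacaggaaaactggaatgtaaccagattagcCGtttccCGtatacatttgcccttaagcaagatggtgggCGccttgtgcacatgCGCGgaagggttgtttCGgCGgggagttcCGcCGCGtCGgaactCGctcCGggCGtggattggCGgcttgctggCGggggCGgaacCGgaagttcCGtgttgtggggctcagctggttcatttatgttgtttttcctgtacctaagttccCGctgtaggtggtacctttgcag
PCDH19: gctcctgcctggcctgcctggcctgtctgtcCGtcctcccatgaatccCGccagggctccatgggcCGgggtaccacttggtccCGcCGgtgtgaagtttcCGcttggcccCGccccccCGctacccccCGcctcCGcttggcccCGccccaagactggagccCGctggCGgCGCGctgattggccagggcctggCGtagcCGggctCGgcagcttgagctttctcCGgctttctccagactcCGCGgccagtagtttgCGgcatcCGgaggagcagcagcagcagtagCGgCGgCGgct
TOMM40: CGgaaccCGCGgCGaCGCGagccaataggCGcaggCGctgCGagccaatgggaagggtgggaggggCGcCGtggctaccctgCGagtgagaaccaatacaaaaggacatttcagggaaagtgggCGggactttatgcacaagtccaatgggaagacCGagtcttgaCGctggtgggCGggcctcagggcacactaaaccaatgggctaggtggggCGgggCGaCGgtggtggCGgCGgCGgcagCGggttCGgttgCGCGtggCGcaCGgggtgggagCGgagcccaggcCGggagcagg
FGB, the fibrinogen β chain gene that hepatocytes express (chr4:154562730-154563029, plus strand), has 0 CG in this stretch and a G+C content of 32.7%. OR4C11, an odorant receptor gene (chr11:55607596-55607895, minus strand), has 2 CG and 37.0% G+C. PIK3C3, the kinase that starts autophagosome formation (chr18:41954984-41955283, plus strand), has 21 CG and 52.3% G+C. PCDH19, a neuronal adhesion protein gene (chrX:100410224-100410523, minus strand), has 26 CG and 71.0% G+C. TOMM40, the channel of mitochondrial protein import (chr19:44891004-44891303, plus strand), has 30 CG and 67.3% G+C, and its start lay within 1 kb of a lipid-overload peak of 161 fragments and a mock peak of 113. TOMM40 was picked after its values were seen. The first 2 promoters are CpG-poor and the other 3 CpG-rich, so both kinds occur in windows without a peak.

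Windows without a peak held few genes. They had a median of 8 gene starts of any biotype (quartiles 5 and 11), against 18 (12 and 28) in windows with a peak. Of protein-coding genes they held a median of 1 (0 and 2), against 5 (2 and 10). A protein-coding gene was missing altogether from 135 of the 368 windows (36.7%), against 222 of the 2519 windows with a peak (8.81%). In all, 3408 of 58415 genes (5.83%) and 562 of 19817 protein-coding genes (2.84%) started in a window without a peak. Only 7 of these windows held a single gene, so most of them are not empty stretches but regions of sparse genes.

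**Figure D1:**
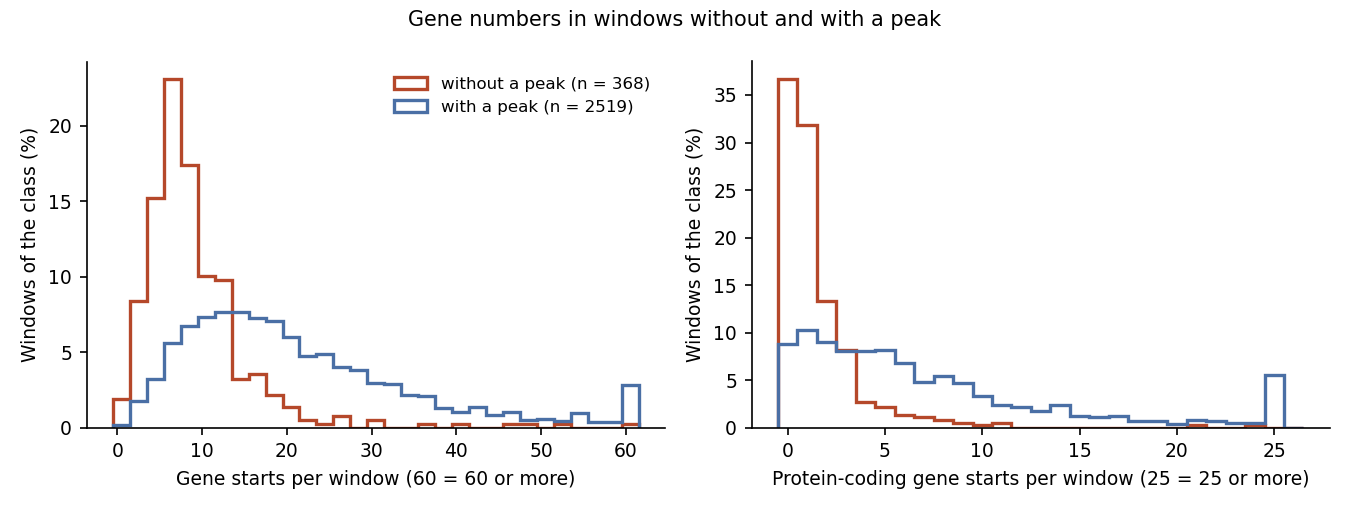
Distribution of the number of gene starts of any biotype (left) and of protein-coding gene starts (right) per 1 Mb window, as a percentage of the 368 windows without a peak and of the 2519 windows with a peak. Windows without a peak crowd at the low end, with a median of 8 genes and 1 protein-coding gene, and a thin tail reaches 60 genes and 24 protein-coding genes.

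The share of windows without a peak fell with gene number. It was 42.2% of the 223 windows with 1 to 5 genes and 29.3% of the 583 with 6 to 10. It dropped to 11.8% of the 535 windows with 11 to 15 genes, 5.01% of the 459 with 16 to 20, 1.75% of the 570 with 21 to 30 and 1.35% of the 517 with 31 or more. By protein-coding genes it was 37.8% of the 357 windows with 0, 31.1% of the 376 with 1 and 17.8% of the 276 with 2. Of windows with 3 to 5 protein-coding genes 7.25% had no peak, of those with 6 to 10 2.30%, and of those with 11 or more 0.708%, which is 4 of 565 windows. Where the number of genes was 1 to 5, it made no visible difference whether any of them coded for a protein: 58 of 139 windows without a protein-coding gene had no peak (41.7%), and 36 of 84 with one (42.9%). At 6 to 10 genes the shares were 63 of 163 (38.7%) and 108 of 420 (25.7%), and at 11 to 15 genes 13 of 38 (34.2%) and 50 of 497 (10.1%).

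**Figure D2:**
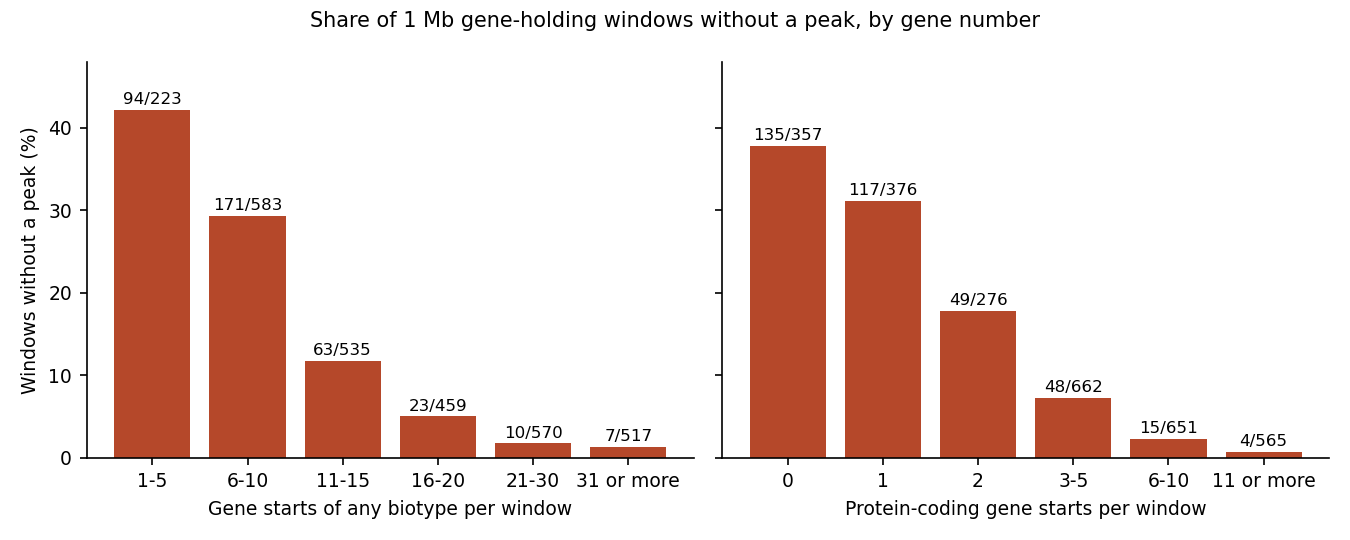
Percentage of 1 Mb gene-holding windows without a peak of either list, by the number of gene starts of any biotype (left) and of protein-coding gene starts (right), with the counts above each bar. The share runs from 42.2% at 1 to 5 genes down to 1.35% at 31 or more, and from 37.8% at 0 protein-coding genes down to 0.708% at 11 or more.

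The lists of the conditions left different numbers of windows empty. Without a lipid-overload peak there were 504 windows (17.5% of all gene-holding windows), and without a mock peak 802 (27.8%), and the mock list is the shorter one. Windows with a lipid-overload peak only numbered 434, those with a mock peak only 136, and those with both 1949. The 434 windows with lipid-overload peaks only stood between the extremes in gene number, with a median of 12 genes and 3 protein-coding genes, and held 1166 lipid-overload peaks with a median of 6 fragments. The 136 windows with mock peaks only had a median of 8 genes and 1 protein-coding gene, as did the windows without any peak. Their 177 mock peaks had a median of 4 fragments and at most 8, close to the fewest that the mock list holds.

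The border of the choice is a single peak. Exactly 1 peak lay in 269 windows, with a median of 9 genes and 1 protein-coding gene, and 2 peaks lay in 237 windows, with a median of 10 genes and 2 protein-coding genes. In the single-peak windows the peak came from the lipid-overload list in 168 cases, with a median of 5 fragments (4 to 19), and from the mock list in 101 cases, with a median of 3 (3 to 6). Many windows just outside the choice were thus kept out of it by a peak near the lowest listed fragment number.

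Windows without a peak were unevenly spread over the chromosomes. Chromosome 4 had 69 of its 189 gene-holding windows without a peak (36.5%), chromosome X 51 of 153 (33.3%) and chromosome 18 19 of 77 (24.7%). At the other end stood chromosome 19 with 1 of 57 (1.75%), chromosome 16 with 2 of 82 (2.44%) and chromosome 17 with 2 of 81 (2.47%). Together, chromosomes 4, X and 2 held 160 of the 368 windows (43.5%). On chromosome 4, 15.99% of the protein-coding genes started in such a window, on chromosome X 13.1% and on chromosome 18 5.60%, against 2.84% over all chromosomes. On chromosome 5, which is about as gene-poor as chromosome 4 (medians of 13.5 and 12 genes a window), only 6 of 178 windows had no peak (3.37%), and 0.224% of its protein-coding genes started there.

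At equal gene number the chromosomes still differed. Among windows with 1 to 10 genes, 47 of 78 had no peak on chromosome 4 (60.3%), 37 of 62 on X (59.7%), 15 of 24 on chromosome 14 (62.5%) and 15 of 29 on chromosome 18 (51.7%). In the same class of windows, 6 of 63 had none on chromosome 5 (9.52%), 6 of 59 on chromosome 6 (18.6%) and 8 of 48 on chromosome 8 (16.7%). Among windows with 11 to 20 genes the share was 23.4% on chromosomes 4 and X together (30 of 128) and 6.47% on the other chromosomes (56 of 866). Chromosomes 5, 6 and 7 had 0 such windows without a peak, of 73, 58 and 57. Over all gene-holding windows, chromosome 4 averaged 2.58 lipid-overload and 1.00 mock peaks a window and X 2.46 and 0.771, against 10.6 and 3.48 on chromosome 5. These means move with the shares because both come from the same lists.

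**Figure D3:**
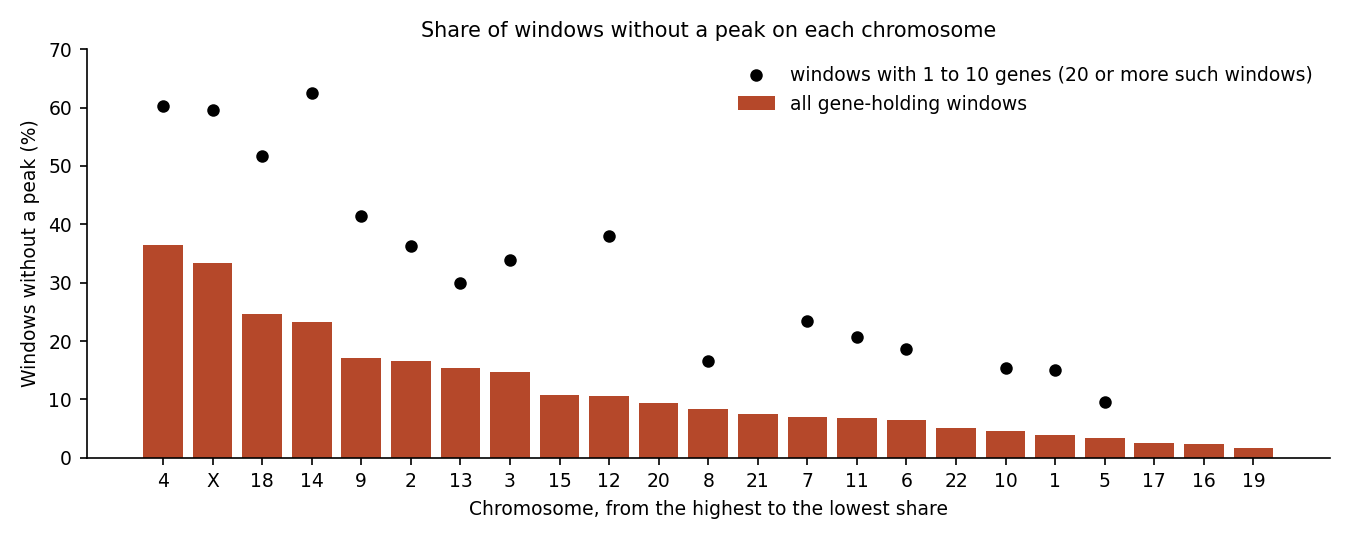
Percentage of gene-holding windows without a peak on each chromosome (bars), and the same for windows with 1 to 10 genes where a chromosome has at least 20 of them (points). Chromosomes 4 and X stand highest by all windows, at 36.5% and 33.3%, and in gene-poor windows the points span 62.5% on chromosome 14 to 9.52% on chromosome 5.

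The tip of the short arm of chromosome X was empty in both lists. It is the pseudoautosomal region, whose sequence is shared with chromosome Y. The windows from 1 to 2000000 held 29 genes, 13 of them protein-coding, among them SHOX, a growth regulator, and IL3RA, a cytokine receptor subunit. These genes were chosen after their values were seen. The first peak on the chromosome, at 2928721 to 2928941, was a lipid-overload peak of 8 fragments. On chromosome Y no peak of either list lay before 2000000. How reads that align to several places were treated is not given in the sources used here.

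Peakless windows often lay side by side. The 368 windows formed 227 runs, 150 of them of a single window, 49 of 2, 10 of 3, 8 of 4, 5 of 5, 2 of 6 and 3 of 7 windows. Runs of 2 or more windows took in 218 windows (59.2%), and the 10 runs of 5 or more took in 58 (15.8%), of which 5 runs lay on chromosomes 4 and X. Gene-holding windows with peaks directly beside a window without one were themselves sparse in peaks. These 392 windows had medians of 2 lipid-overload and 1 mock peak, against 7 and 3 in the 2127 windows further away, and medians of 13 and 19 genes. At 6 to 10 genes a window the medians were 1 lipid-overload peak in the 104 windows beside and 2 in the 308 further away, and 1 mock peak in both. From the middle of a window without a peak, the nearest lipid-overload peak lay at a median of 0.998 Mb and at most 5.19 Mb, and the nearest mock peak at a median of 1.26 Mb and at most 7.19 Mb.

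The 5 longest runs held few protein-coding genes for their length. Only the longest of these, up to 4 a run, are named here, so the names lean towards long genes. On chromosome 2, the run from 137000001 to 144000000 held 69 genes, 7 of them protein-coding. LRP1B, a giant receptor of the LDL receptor family, spans 1899.6 kb there (140231423 to 142131016), beside ARHGAP15, a GTPase-activating protein (638.9 kb), QTMAN, a tRNA-modifying glycosyltransferase (395.0 kb), and KYNU, which encodes kynureninase of tryptophan breakdown (178.2 kb). The stretch between the nearest peaks was 7.41 Mb long, flanked by lipid-overload peaks of 4 and 5 fragments. The second of these, at 144332205 to 144332402, lies inside QTMAN near its higher coordinate, 144333069.

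On chromosome X, the run from 94000001 to 101000000 held 65 genes, 13 of them protein-coding. DIAPH2, an actin-organising formin, spans 920.2 kb, PCDH19 118.6 kb, TRMT2B, an RNA methyltransferase, 78.7 kb and XKRX 72.4 kb. The peak-free stretch was 7.52 Mb, and the lipid-overload peak to its right held 17 fragments.

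Chromosome 4 had a run from 28000001 to 35000000 with 49 genes and 2 protein-coding genes. PCDH7, a protocadherin, spans 426.4 kb of it, and the peak-free stretch was 8.02 Mb. Its second long run, from 132000001 to 138000000, held 41 genes and 3 protein-coding genes: PCDH10 and PCDH18, also protocadherins, and PABPC4L. The peak-free stretch there was 7.13 Mb. On chromosome 18, the run from 38000001 to 44000000 held 41 genes and 3 protein-coding genes: RIT2, a small GTPase of neurons, SYT4, a vesicle protein of neurons, and PIK3C3. The peak-free stretch was 7.24 Mb. Of the 10 peaks that bound these 5 stretches, 9 held 5 fragments or fewer. These were not the longest peak-free stretches, because a window without a gene start ends a run. Shorter runs lay in peak-free stretches of 21.6 Mb on chromosome 9, 10.7 Mb on chromosome 16 and 8.98 Mb on chromosome 4. Assembly gaps and repeats in these longer stretches could not be measured, so how much of their length could hold a peak is unknown.

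The make-up of genes in windows without a peak differed from that of windows with a peak. Protein-coding genes were 16.5% of the 3408 genes (562), against 35.0% of the 55007 genes in windows with a peak. Long noncoding RNAs were 39.9% (1359), against 30.1%, and pseudogenes of all kinds 38.6% (1315), against 27.6%. By biotype, 8.37% of 15048 pseudogenes and 7.59% of 17904 long noncoding RNAs started in a window without a peak. MicroRNA genes, at 99 of 1911 (5.18%), and small nucleolar RNA genes, at 61 of 1190 (5.13%), were near the 5.83% of all genes. Transfer RNA genes were rare there, at 4 of 429 (0.932%), and none of 235 V segments of antigen receptors lay there. In 125 of the windows without a peak (34.0%) pseudogenes made up at least 50% of the genes, against 325 of the windows with one (12.9%).

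Several families of nerve cell adhesion and signalling genes had a large share of their members in these windows. Of the 12 non-clustered protocadherins, adhesion proteins encoded outside the large clusters, 6 started there (PCDH7, PCDH10, PCDH11X, PCDH18, PCDH19 and PCDH20), in 6 different windows. Of 10 SLITRK and LRRTM genes, whose proteins organise synapses, 4 did (LRRTM4, SLITRK2, SLITRK3 and SLITRK4), and of 11 contactin and CNTNAP genes, axonal adhesion proteins, 3 did (CNTN4, CNTNAP2 and CNTNAP3). The count of 3 leaves out CNTNAP3B and CNTNAP3C, though their promoters lie in windows without a peak on chromosome 9. CNTNAP3C is on the plus strand, so its start by the lower coordinate lies there too. How reads that align to more than 1 of the CNTNAP3 genes were treated is not given. Type II cadherins had 3 of 13 (CDH7, CDH8 and CDH20). The sodium channel genes SCN1A, SCN2A and SCN3A, 3 of 14, share the window 165000001 to 166000000 on chromosome 2. These families are known mainly from the nervous system. Over all protein-coding genes the share was 2.84%, but it was 15.99% on chromosome 4 and 13.1% on X. PCDH7, PCDH10 and PCDH18 lie on chromosome 4, and PCDH11X, PCDH19, SLITRK2 and SLITRK4 on X. The other genes named here lie on other chromosomes. Family and chromosome were not separated. The 95 potassium channel genes had 5 there (5.26%), and the 53 protein-coding clustered protocadherins had 0, since their 2 windows held medians of 17.5 lipid-overload and 4.5 mock peaks.

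Tandem families varied. Of 869 olfactory receptor genes and pseudogenes 70 lay in windows without a peak (8.06%), and of the 389 protein-coding ones 29 (7.46%). With the window grid moved by 0.5 Mb the share of the 869 was 3.34%. Of the 70, 41 share the window from 55000001 to 56000000 on chromosome 11 and 16 the window from 19000001 to 20000000 on chromosome 14. Of the 122 windows with an olfactory receptor gene or pseudogene, 10 had no peak. USP17L genes, which encode deubiquitinating enzymes, had 23 of 29 in a single window on chromosome 4. Other families, most of them in tandem, had none: keratins (68 genes), keratin-associated proteins (112), cornified envelope proteins (31), bitter taste receptors (33), type I interferons (17) and T cell receptor segments (231). The windows of the keratins held a median of 31 lipid-overload peaks and those of the keratin-associated proteins 20. For these families the window measures the neighbourhood and not the genes.

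**Figure D4:**
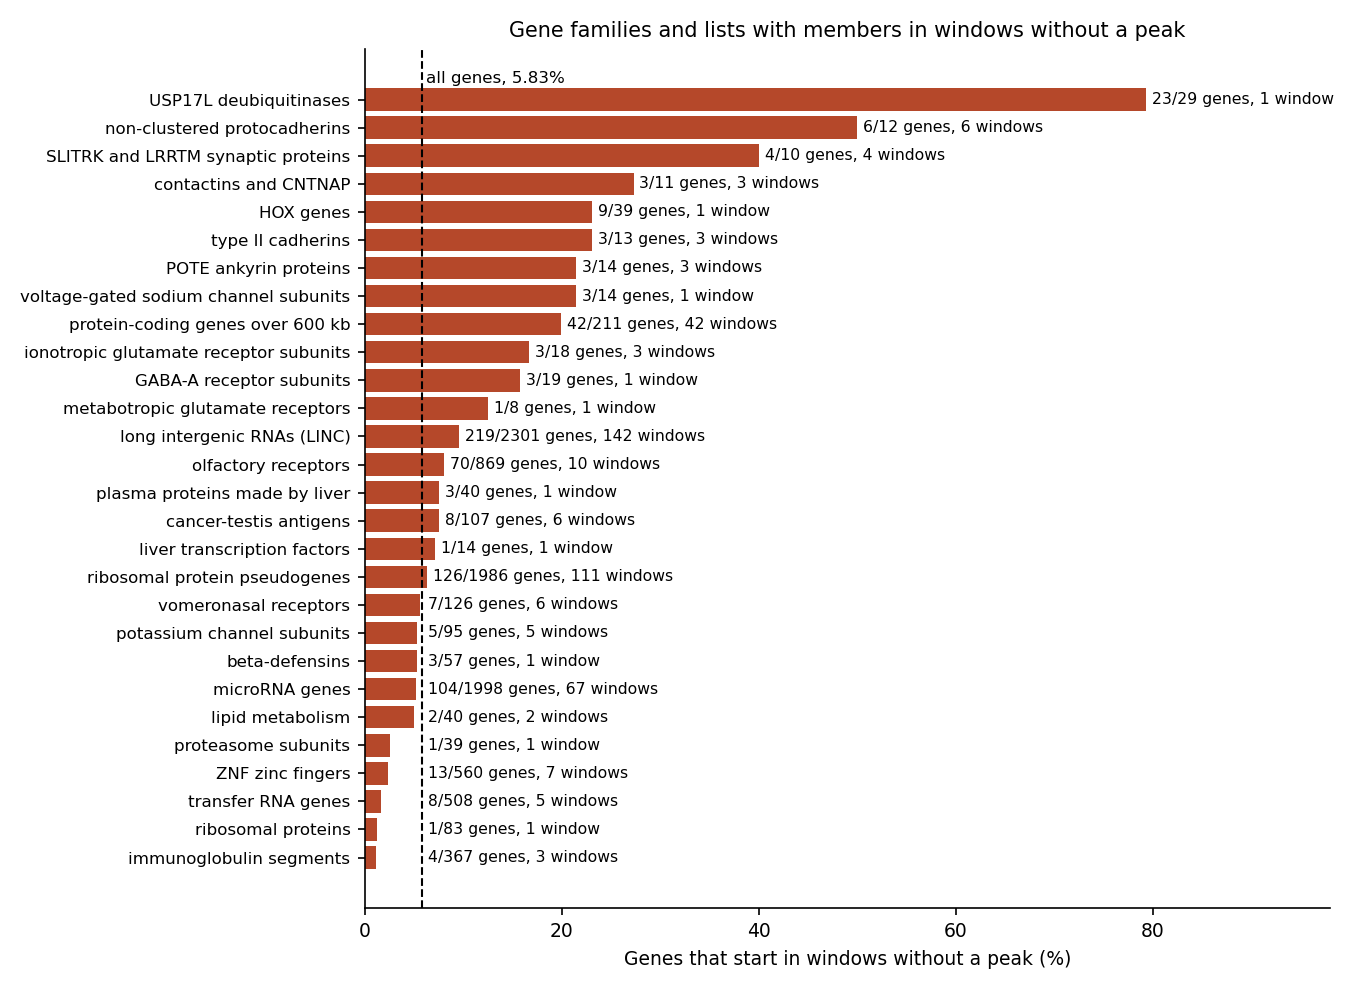
Percentage of the genes of each family or list that start in windows without a peak, for families with at least 1 such gene, with the number of genes and of windows beside each bar and the 5.83% of all genes as a dashed line. Families are taken by gene symbol, pseudogenes included, so microRNA (104 of 1998) and transfer RNA genes (8 of 508) count more than by biotype. Non-clustered protocadherins (6 of 12, in 6 windows, mostly on chromosomes 4 and X) stand high across separate windows. USP17L genes (23 of 29) and HOX genes (9 of 39) each rest on 1 window.

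The HOX genes, which set position along the body axis in the embryo, split by cluster. All 9 HOXD genes lay in 1 window without a peak, chromosome 2 from 176000001 to 177000000, which held 37 genes and 11 protein-coding genes. The window of the 11 HOXA genes held 10 lipid-overload and 3 mock peaks among 37 genes, that of the 10 HOXB genes 16 and 8 among 61 genes, and the 2 windows of the 9 HOXC genes 78 and 27 among 97 genes. A lipid-overload peak touched or lay within 1 kb of 5 HOXA, 1 HOXB and 4 HOXC genes, and of 0 HOXD genes. The choice of the HOXD window by its lack of peaks fixed this 0, so it is not a measured difference between clusters.

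A few genes that liver cells use lay in these windows, against a share of 2.84% over all protein-coding genes. Of 40 genes for plasma proteins made by liver, 3 lay there (7.5%): FGA, FGB and FGG, which encode the chains of fibrinogen, in 1 window on chromosome 4 from 154000001 to 155000000. That window held 16 genes. Of 14 liver transcription factors 1 lay there (7.14%), FOXA2, a pioneer factor of endoderm. Of 40 genes of lipid metabolism 2 did (5.0%), PPARGC1A, a coactivator of mitochondrial and gluconeogenic genes, and ELOVL6, which elongates fatty acids. None of 24 genes of the double-strand break response, 18 housekeeping genes and 69 replication-dependent histone genes did, and nothing is read from a count of 0 in lists this short. Ribosomal proteins had 1 of 83, RPL10L, and proteasome subunits 1 of 39, PSMD6. The windows of the housekeeping genes held medians of 36.5 lipid-overload and 8 mock peaks, and those of the lipid metabolism genes 29 and 5.

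Very long genes were common among the members. Of 211 protein-coding genes over 600 kb, 42 (19.9%) started in a window without a peak, among them CNTNAP2 (2304.2 kb), LRP1B and FHIT (1504.2 kb), a gene at a common fragile site. The protein-coding genes of these windows had a median length of 49.0 kb, against 24.2 kb in windows with a peak. Since a gene can run on into the next window, 98 of the 562 genes cross the border, and 64 of these end in a window with peaks. The start used here is the lower coordinate, so a gene on the minus strand can have its promoter in another window. Of the 452 genes among the 562 with a promoter sequence, 415 had their 5′ end in a window without a peak. Only 19 of the 562 (3.38%) held a peak anywhere in the gene, 15 of them a lipid-overload peak and 11 a mock peak. In windows with a peak 10618 of 19255 held one (55.1%). Among the 42 genes over 600 kb 9 held one (21.4%), against 141 of the 169 such genes that start in windows with a peak (83.4%). The choice of windows by peaks largely fixes both contrasts, and nothing is read from them. None of CNTNAP2, LRP1B and FHIT held a peak of either list. LRP1B and FHIT lie wholly within windows without a peak, so the choice of windows fixed this for them, and nothing is read from it. PPARGC1A held 1 lipid-overload and 1 mock peak, and SLC2A9, a urate transporter gene, 2 lipid-overload peaks, beyond the border of the window.

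Several of the densest windows without a peak held tandem clusters. Most genes, 60, of which 24 were protein-coding and 30 pseudogenes, lay on chromosome 4 from 9000001 to 10000000, with the USP17L copies, SLC2A9, DRD5, a dopamine receptor, FAM90A26 and the defensin DEFB131A. The chromosome 11 window of olfactory receptors, also with TRIM48 and TRIM51, held 47 genes, 21 of them protein-coding and 26 pseudogenes. Chromosome 19 from 20000001 to 21000000 held 52 genes, with the zinc finger genes ZNF66, ZNF90, ZNF626 and ZNF737 and 32 pseudogenes, and is the only window of that chromosome without a peak. The chromosome 14 window held 49 genes, among them POTEG, OR4K1, OR4M1 and OR4N2, and 33 pseudogenes. Chromosome 15 from 32000001 to 33000000 held 41 genes, with CHRNA7, a nicotinic receptor subunit, the formin FMN1 and SCG5, a chaperone of secretory granules. Many genes of the USP17L, POTE and olfactory receptor families have near-identical copies, to which short reads cannot be assigned with certainty, and a missing peak there is uncertain for that reason. Assembly gaps, repeats and reads with several alignments could not be measured in any window. The same doubt can therefore hold for windows without these families. The HOXD window, with MTX2, a mitochondrial outer membrane protein gene, and the window of PCDH19 on chromosome X (20 genes, 10 of them protein-coding, among them SYTL4) were gene-rich members with fewer pseudogenes, 8 each.

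Promoter sequence differed as well. The choice of windows did not read sequence, but it is not independent of it, since peaks often lay near CpG-rich promoters, as given below. Leaving out every window with a peak thus partly fixes these contrasts and those by the number of CpG-rich promoters. RefSeq promoter sequences were at hand for 15811 protein-coding genes, none of them on chromosome 8, and 446 of these promoters (2.82%) lay in a window without a peak. They had a median G+C content of 56.0% (quartiles 45.0 and 65.0), against 62.7% (54.0 and 70.3) for the 15365 promoters in windows with a peak. The median number of CG was 13 (4 and 24), against 22 (8 and 32). A promoter is called CpG-rich here when its G+C content is at least 50% and its CG are at least 0.6 of the number that its C and G counts would give by chance. By this measure 196 of the 446 were CpG-rich (43.9%), against 9784 of 15365 (63.7%), so 1.96% of all CpG-rich promoters lay in a window without a peak. Promoters of long noncoding RNAs were poorer still: 74 of 822 were CpG-rich in windows without a peak (9.0%), against 2687 of 10561 (25.4%). The motif TATAAA, on either strand and anywhere in the 300 bases, was in 62 of the 446 protein-coding promoters (13.9%), against 1480 of 15365 (9.63%) and 9.75% of all.

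In windows with peaks, a larger share of CpG-rich promoters than of other promoters had a peak nearby. A lipid-overload peak lay within 1 kb of the start of 5988 of the 9784 CpG-rich promoters there (61.2%) and of 869 of the 5581 others (15.6%). For mock peaks the shares were 1814 (18.5%) and 265 (4.75%). Windows without a peak held few CpG-rich promoters. Off chromosome 8, 226 of 356 members (63.5%) held 0, and 16 held 3 or more. The share of windows without a peak was 34.2% of the 661 windows with 0 CpG-rich promoters, 20.6% of the 447 with 1, 6.90% of the 319 with 2, 2.15% of the 697 with 3 to 5 and 0.162% of the 619 with 6 or more, which is 1 window.

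At equal gene number this order remained. Among windows with 6 to 10 genes, 115 of 311 with 0 CpG-rich promoters had no peak (37.0%), 44 of 146 with 1 (30.1%), 5 of 58 with 2 (8.62%) and 2 of 30 with 3 to 5 (6.67%). Among windows with 11 to 15 genes the shares were 22.8% of 114, 11.6% of 138, 10.1% of 119 and 5.04% of 119. The number of promoters that are not CpG-rich gave no steady order: where a window had 0 CpG-rich promoters, 153 of 414 windows with 0 other promoters had no peak (37.0%), 49 of 161 with 1 (30.4%), 12 of 45 with 2 (26.7%), 10 of 29 with 3 to 5 (34.5%) and 2 of 12 with 6 or more (16.7%). The chromosomes still differed at an equal number. With 0 CpG-rich promoters, 71 of 112 windows on chromosomes 4 and X had no peak (63.4%), against 155 of 549 on the other chromosomes (28.2%) and 5 of 51 on chromosome 5 among them (9.80%). With 2 or more the counts were 20 of 162 (12.3%), 18 of 1473 (1.22%) and 0 of 97.

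**Figure D5:**
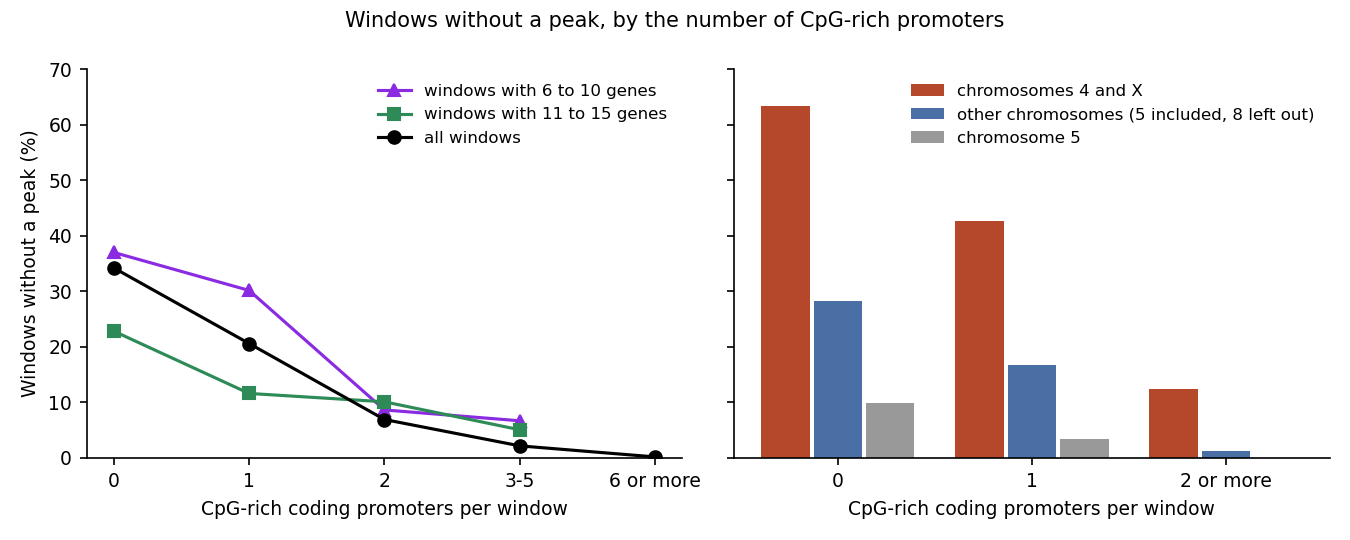
Percentage of windows without a peak by the number of CpG-rich protein-coding promoters in the window (chromosome 8 left out), for windows with 6 to 10 genes, 11 to 15 genes and all windows (left, points from at least 20 windows) and for groups of chromosomes (right). The share falls from 34.2% with 0 CpG-rich promoters to 0.162% with 6 or more, and at 0 it is 63.4% on chromosomes 4 and X, 28.2% on the others and 9.80% on chromosome 5.

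The single window with 6 or more was that of the HOXD cluster, with 9 CpG-rich promoters: EVX2, HOXD1, HOXD3, HOXD8, HOXD10, HOXD11, HOXD12, HOXD13 and MTX2. The next were a window on chromosome X from 51000001 to 52000000 with 5, among them GSPT2, a translation termination factor, and a window on chromosome 4 from 176000001 to 177000000 with 5: GPM6A, a neuronal membrane protein, SPATA4, SPCS3, a subunit of the signal peptidase, VEGFC, a growth factor of lymph vessels, and WDR17. These windows were singled out after their values were seen. Among other genes named above, the promoters of FGA, FGB and FGG held 2, 0 and 4 CG. That of ELOVL6, from the lipid metabolism list, held 20 and that of PSMD6, a proteasome subunit gene, 25.

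MicroRNA genes encode short RNAs that repress messenger RNAs through pairing of their seed. Of 1911 such genes, 99 (5.18%) lay in 67 windows without a peak, near the 5.83% of all genes. RefSeq sequences were at hand for 94 of the 99, with 132 mature forms and 119 different seeds. The window with the largest number, 8 of the 99, lay on chromosome X from 50000001 to 51000000. These 8 form a cluster of 11.5 kb (50003148 to 50014683): MIR188, MIR362, MIR500A, MIR500B, MIR501, MIR502, MIR532 and MIR660. Mature forms of this cluster that share a seed, and the 5p forms of MIR532 and MIR188 for comparison, are shown with the seed (bases 2 to 8) in capitals:
miR-362-5p: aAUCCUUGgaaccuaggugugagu
miR-500b-5p: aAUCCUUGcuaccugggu
miR-501-3p: aAUGCACCcgggcaaggauucu
miR-502-3p: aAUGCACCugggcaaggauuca
miR-532-5p: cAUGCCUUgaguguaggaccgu
miR-188-5p: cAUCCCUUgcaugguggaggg
The first 2 share the seed AUCCUUG and the next 2 the seed AUGCACC. The nearest peaks were weak mock peaks, of 3 fragments 0.08 Mb to the left and of 4 fragments 2.84 Mb to the right, and no lipid-overload peak lay between them. The next windows by number of microRNA genes were also on chromosome X, with 6 (among them MIR448 and MIR1298) and 5 (among them MIR888 and MIR890).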

How the data were processed

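γH2AX CUT&Tag of HepG2 cells was deposited as 2 peak lists, 1 per library, so peaks were called per sample. The submitters' processing notes name hg38, deepTools, MACS2 2.1.2, BWA and FastQC. Their settings, and whether an IgG control entered peak calling, are not stated there. The deposited score, fold (a linear ratio at the summit), −log10 p and −log10 q are the authors' own values. No deposited peak had a −log10 q under 1.30.

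Groups were taken from the sample titles. Fragments at each summit were solved from the deposited fold, taken as fragments plus 1 over background plus 1, and p, taken as the Poisson tail. A whole number fitted 100% of peaks within 0.001 in log10 p. The step was tested on simulated data, as was the assignment of peaks to windows. Library totals are unknown.

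Genes came from the RefSeq table of GRCh38.p14, which has no strand, so the start is the lower coordinate. Of 59094 genes, 679 (153 protein-coding) were set aside because their position lay more than 1 Mb out of the table's order. Overlap was 1 bp or more. Counts, shares and medians were computed with Python 3.11.15, pandas 2.3.3 and numpy 2.4.6. No test was run, since each condition has 1 library and the peaks chose the windows.

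The windows, families and lists were chosen with earlier results of these data known. Named were the 5 longest runs, the 6 windows with most genes and with most protein-coding genes, up to 4 of the longest protein-coding genes of each and of each family or list, and the 3 chromosomes at either end. Some genes that this rule names are not reported here, and their families are given only in the plot of families. Other names were chosen after their values were seen. Of the further families, some had 0 members in these windows (trace amine receptors, alpha-defensins, PRAME, SERPINB and UGT2 families, alcohol dehydrogenases) and some had shares of genes near or below that of all genes (vomeronasal receptors 7 of 126, beta-defensins 3 of 57, immunoglobulin segments 4 of 367, ribosomal protein pseudogenes 126 of 1986, ZNF genes 13 of 560), while LINC genes had 219 of 2301, cancer-testis antigens 8 of 107, POTE genes 3 of 14 and metabotropic glutamate receptors 1 of 8.

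Alternatives changed the peak threshold, list length, lists used, window size and grid, gene start and gene set.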

Additional observations from a re-analysis of the deposited data

Results flagged for a closer look

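Peaks also lay in windows that the gene rule leaves out. There were 14 windows of 1 Mb without any gene start that held a peak, with 35 lipid-overload peaks and 19 mock peaks in all. They were picked for holding a peak, so the counts have no expected value to be set against. No explanation was tested.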

How the results depend on the processing

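No paired analysis was possible because each condition has 1 library. Of 105 values recomputed under 15 alternatives, 55 stayed within 1.5 times the value reported (counts, medians and runs) or within its exact 95% binomial interval (shares), and 50 moved. Chromosome 4 had the highest share in each alternative except with mock peaks alone, where it was X. The values reported are 368 windows, a median of 8 genes, 63.3% with a protein-coding gene, a longest run of 7, 36.5% on the highest chromosome, 2.84% of protein-coding genes and 8.06% of olfactory receptor genes. With a −log10 q of at least 5 there were 980 windows, 70% with a protein-coding gene, a run of 20, 60.8% on chromosome 4, 10.6% of protein-coding genes and 29.8% of olfactory receptor genes. With a fold of at least 5 there were 713 windows, a run of 13, 53.4% on chromosome 4, 6.30% of protein-coding genes and 18.8% of olfactory receptor genes. With lists of equal length there were 633 windows, 68.9% with a protein-coding gene, a run of 11, 48.1% on chromosome 4, 6.24% of protein-coding genes and 15.4% of olfactory receptor genes. With no mock peak as the only rule there were 802 windows, 74.6% with a protein-coding gene, a run of 13, 57.5% on X, 10.9% of protein-coding genes and 18.4% of olfactory receptor genes. With no lipid-overload peak as the only rule the shares were 45.5% on chromosome 4 and 3.84% of protein-coding genes. Windows of 0.5 Mb gave 1316 windows, a median of 4 genes, 47.7% with a protein-coding gene, a run of 15, 51.8% on chromosome 4, 6.34% of protein-coding genes and 18.8% of olfactory receptor genes. Windows of 2 Mb gave 88 windows, a median of 14 genes, 72.7% with a protein-coding gene, a run of 4, 21.9% on chromosome 4, 1.11% of protein-coding genes and 2.30% of olfactory receptor genes. With protein-coding genes only there were 233 windows, a median of 1 gene, 100% with a protein-coding gene by construction, a run of 4 and 28.2% on chromosome 4. Moving the grid by 0.5 Mb lowered the olfactory receptor share to 3.34%. Chosen after seeing the data, leaving pseudogenes out of the gene count gave a median of 5, and leaving out windows with pseudogenes for at least 50% of their genes gave 243 windows, 69.5% with a protein-coding gene, 2.12% of protein-coding genes and 0.806% of olfactory receptor genes. Placing peaks by summit, genes by the higher coordinate or by the 5′ end of the promoter table, and keeping genes that break the order moved none of the 7 values. Depth limits the choice: the weakest listed peaks rest on 4 (lipid overload) and 3 (mock) fragments.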
